A study of Homo sapiens with 10 samples.

Results

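The kallikreins described here are KLK5, KLK6, KLK7, KLK8, KLK10 and KLK11, the 6 genes of the chromosome 19 kallikrein cluster named for this description and found by their exact symbols among the 25370 genes of the deposited counts table. All 6 were listed in the table, and 5 of them had enough reads to be tested, while KLK11 did not. RNA was taken from 4 clones of PEO1, called ABTr1, ABTr2, ABTr3 and ABTr4, that the labels give as veliparib resistant, and from the parental PEO1 line, whose genotype is labelled WT and for which the labels give no veliparib. PEO1 is an established ovarian cancer line of the high grade serous type that lacks working BRCA2. The clones were derived from it, and whether they still lack working BRCA2 was not tested here. The clones were kept in 40 µM veliparib, an inhibitor of the DNA repair enzyme PARP, for 6 months and then grown without it for 4 to 5 days before RNA collection, so resistance, long exposure and withdrawal cannot be told apart. Each line is 1 clone, and the growth medium was the same for all 5 groups. There were 2 libraries per group, numbered replicates 1 and 2, and the labels do not say whether they came from separate cultures, so each p-value rests on the spread of the libraries alone. The clone numbers in the sample descriptions (ABTr1 is described as clone 4, ABTr2 as clone 1, ABTr3 as clone 2 and ABTr4 as clone 3) differ from the library names used here.

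Kallikreins are secreted serine proteases made as inactive zymogens, which other kallikreins or related proteases switch on by cutting off a short leader. In the outer skin they form a cascade in which KLK5 activates KLK7 and both cut the proteins that hold cells together, and inhibitors such as SPINK5 restrain them. Their genes lie side by side on chromosome 19, and several of them, with KLK6 and KLK10 among the best studied, are known for high levels in serous ovarian carcinoma.

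All 10 libraries had total counts between 20640602 (ABTr2 replicate 2) and 55488566 (ABTr2 replicate 1). Levels are given as CPM, the count of a gene per 1000000 counts of a library whose size was scaled with edgeR's TMM factors, and 1 read was worth 0.0182 to 0.0483 CPM. Genes of epithelial cells, the labelled cell type, were present in every library, with the summed CPM of EPCAM, KRT8, KRT18, KRT19 and CDH1 at 1848 to 2377 in the clones and 6166 to 9404 in PEO1. All 5 were lower in the clones by the edgeR test used below (adjusted p under 0.05). CDH1 added little to the sum in the clones, at 0.0430 to 9.56 CPM, against 147 to 358 CPM in PEO1. Of 4 fibroblast markers, DCN, LUM and COL3A1 had 0 reads in every library, while COL1A1 had 1.80 to 15.7 CPM in the clones and 8.16 to 8.47 CPM in PEO1. Of 3 leukocyte markers, PTPRC and CD3E had 17 and 6 reads in the clones and 4 and 0 in PEO1, and CD14 had 1.91 to 17.4 CPM in the clones and 8.46 to 18.3 CPM in PEO1.

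The promoters of the 3 members with the highest levels per kilobase are shown because these members carry most of the kallikrein reads. They are from RefSeq on GRCh38.p14, on the minus strand, from 250 bases before to 50 bases after an annotated start, while the counts were made on hg19. The entries are KLK5 at chr19:50952989-50953288, KLK6 at chr19:50969542-50969841 and KLK10 at chr19:51019660-51019959, and capitals mark 2 motifs read on either strand. The first is CAGGTG, an E-box that ZEB factors can bind. The second is GGGCGG, a box that SP1 can bind.
KLK5: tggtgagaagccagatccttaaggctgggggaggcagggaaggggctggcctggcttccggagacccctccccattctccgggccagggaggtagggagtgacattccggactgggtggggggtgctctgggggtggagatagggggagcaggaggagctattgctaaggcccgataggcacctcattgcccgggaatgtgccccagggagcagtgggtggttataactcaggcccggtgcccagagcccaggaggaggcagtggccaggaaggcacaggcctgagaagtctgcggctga
KLK6: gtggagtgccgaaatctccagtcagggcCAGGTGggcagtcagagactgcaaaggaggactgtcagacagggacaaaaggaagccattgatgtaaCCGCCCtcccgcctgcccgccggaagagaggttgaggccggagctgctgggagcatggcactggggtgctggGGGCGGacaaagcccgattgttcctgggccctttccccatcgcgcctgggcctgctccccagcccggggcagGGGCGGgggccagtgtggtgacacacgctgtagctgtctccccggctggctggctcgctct
KLK10: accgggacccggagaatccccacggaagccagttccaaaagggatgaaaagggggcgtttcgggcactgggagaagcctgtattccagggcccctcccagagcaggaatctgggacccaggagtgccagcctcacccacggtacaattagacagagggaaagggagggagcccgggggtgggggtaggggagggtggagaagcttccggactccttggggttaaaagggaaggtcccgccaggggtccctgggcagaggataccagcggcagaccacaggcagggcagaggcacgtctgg

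The search covered 7 motifs on both strands, with no 2 motifs overlapping in these windows. The core promoter motif TATAAA, the full palindromic elements of the estrogen receptor and of the androgen receptor, the Grainyhead-like motif AACCGGTT, and the AP-1 motif TGANTCA matched none of the 9 RefSeq promoter entries of 5 members. Of all 35116 promoters of this length, 11.5% held the first, 0.057% the second, 0.00285% the third, 0.134% the fourth and 7.71% the fifth. The E-box was found in KLK6, in 1 of the 3 entries of KLK7 and in both entries of KLK11, against 20.6% of all promoters, and the SP1 box in KLK6, all 3 entries of KLK7 and 1 entry of KLK11, against 45% of all promoters. The printed KLK6 window held 1 E-box at position -222, counted from the start site, and SP1 boxes at -155, -83 and -11. The windows of KLK5 and KLK10 held none of the 7 motifs, which says only that these letters are not there.

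Transcripts of the kallikreins were lower in the resistant clones than in parental PEO1. KLK5, KLK6, KLK7, KLK8 and KLK10 each fell in the mean of the 4 clones, by 7.51-fold (KLK7) to 198-fold (KLK5). All 5 tested members thus passed the test in the lower direction, whereas 8.79% of the 16490 tested genes did so (edgeR's quasi-likelihood test, Benjamini-Hochberg adjusted p under 0.05). For all 5, each of the 8 clone libraries lay below both PEO1 libraries, which held for 12.5% of tested genes. None of the 5 entered the test through PEO1 alone, since at least 3 clone libraries also reached the CPM that the expression filter asked for. The log2 fold changes of the 5 had a median of -4.23, beside 0.02 over all tested genes. In bulk RNA, fewer cells that express a gene and less RNA per cell cannot be told apart.

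**Figure D1:**
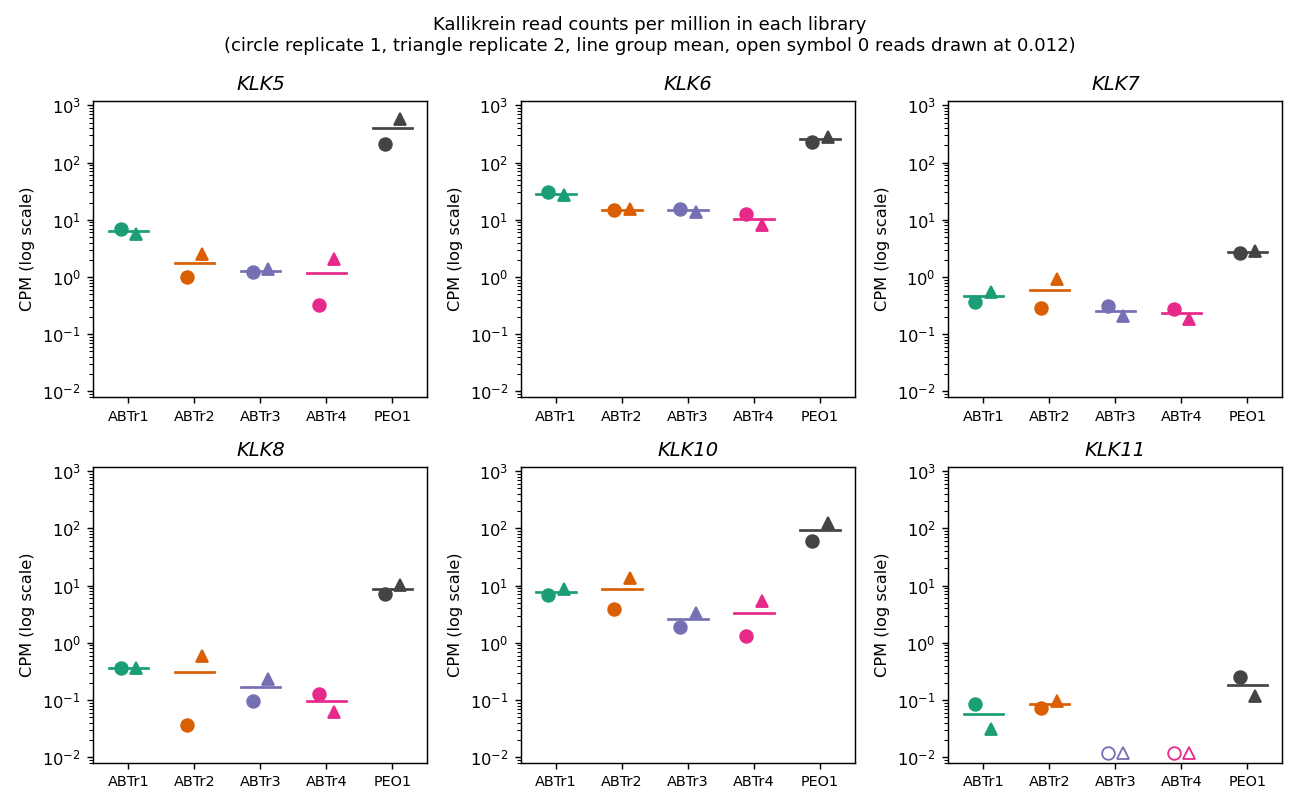
CPM of each kallikrein on a log axis, with a circle for replicate 1, a triangle for replicate 2, a line for the group mean and open symbols for libraries with 0 reads. For KLK5, KLK6, KLK7, KLK8 and KLK10 all clone libraries sit below both PEO1 libraries, and KLK11 is near the foot of the axis in all groups.

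KLK5, a trypsin-like protease known as the activator of other kallikreins in skin, showed the widest gap. It is listed at chr19:51446559-51456344 (hg19, minus strand) with 6 exon blocks. KLK5 had 7.01 and 5.54 CPM in ABTr1, 0.981 and 2.51 in ABTr2, 1.21 and 1.39 in ABTr3, and 0.323 and 2.06 in ABTr4, against 214 and 579 CPM in PEO1 (replicates 1 and 2). The highest clone library, ABTr1 replicate 1, was far below the lower PEO1 library, and the 2 PEO1 libraries differed by more than 2-fold from each other. KLK5 averaged 2.63 ± 2.44 CPM in the clones (SD of 4 clone means) and 397 ± 258 CPM in PEO1 (SD, n = 2), and the log2 fold change was -7.63 with an SE of 0.53 (edgeR adjusted p = 1.30e-04). Its place was 29 from the lowest log2 fold change of the 16490 tested genes. Without PEO1 replicate 1 the value was -8.22 and without PEO1 replicate 2 it was -6.75, and it stayed past the threshold in both.

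KLK6, a trypsin-like protease also called neurosin and studied as a serum marker of ovarian carcinoma, kept the most reads. It lies at chr19:51461887-51472929. KLK6 had 30.3 and 27.1 CPM in ABTr1, 15.1 and 15.2 in ABTr2, 15.7 and 13.9 in ABTr3, and 12.7 and 8.10 in ABTr4, against 225 and 283 CPM in PEO1. Replicates of a group lay close together, ABTr1 had the highest clone values and ABTr4 the lowest, and no clone library came near PEO1. Its log2 fold change of -3.98 carried the smallest SE of the 5, at 0.18 (edgeR adjusted p = 1.54e-05), and it ran from -4.17 to -3.81 when 1 library at a time was left out.

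KLK10, first described as a gene lost in breast cancer cells, came next by level in PEO1 and lies at chr19:51516000-51523431. KLK10 had 6.90 and 8.74 CPM in ABTr1, 3.89 and 13.7 in ABTr2, 1.86 and 3.31 in ABTr3, and 1.29 and 5.30 in ABTr4, against 61 and 123 CPM in PEO1. Replicate 2 was the higher library in all 5 groups, and the lower PEO1 library was still above the highest clone library, ABTr2 replicate 2. KLK10 averaged 5.62 ± 3.13 CPM in the clones (SD of 4 clone means) and 91.9 ± 43.7 CPM in PEO1 (SD, n = 2), which put it 18.8-fold lower in the clones, -4.23 on the log2 scale with an SE of 0.50 (edgeR adjusted p = 0.0012). Without PEO1 replicate 2 it was -3.64 with an edgeR adjusted p of 0.0166.

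KLK8, called neuropsin and known from synapses and skin, lies at chr19:51499264-51504958 and was scarce in the clones. KLK8 had 0.368 and 0.369 CPM in ABTr1, 0.036 and 0.580 in ABTr2, 0.096 and 0.236 in ABTr3, and 0.129 and 0.062 in ABTr4, against 7.19 and 10.3 CPM in PEO1. These values rest on 60 reads in the 8 clone libraries together and 557 reads in the 2 PEO1 libraries. KLK8 was 43.4-fold lower in the clones, -5.44 on the log2 scale with an SE of 0.60 (edgeR adjusted p = 9.30e-04), and without ABTr2 replicate 2, the highest clone library, it was -6.15.

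KLK7, the chymotrypsin-like partner of KLK5 in skin, lies at chr19:51479735-51487320 and was low in PEO1 as well. KLK7 had 0.368 and 0.554 CPM in ABTr1, 0.291 and 0.918 in ABTr2, 0.306 and 0.207 in ABTr3, and 0.280 and 0.185 in ABTr4, against 2.58 and 2.82 CPM in PEO1. The clone libraries held 108 reads and the PEO1 libraries 177. Its log2 fold change of -2.91, with an SE of 0.42 (edgeR adjusted p = 0.0030), was the smallest of the 5 in size, and ABTr2 replicate 2 was the clone library nearest to PEO1.

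KLK11, a trypsin-like protease at chr19:51525487-51531290, had 3 and 1 reads in ABTr1, 4 and 2 in ABTr2, 0 and 0 in ABTr3, and 0 and 0 in ABTr4, against 10 and 3 reads in PEO1. No library reached the CPM of 0.301 that the expression filter asked for. Pooled over the reads, the level was 0.165 times that of PEO1 in the clones together, with an exact 95% counting interval of 0.0647 to 0.407. It was at least 5.64-fold lower in ABTr3 and at least 5.17-fold lower in ABTr4 than in PEO1, with 3 reads over the group as the floor. Both figures take the PEO1 reads as exact and would be smaller with counting error in those reads. With no filter the log2 fold change in the mean of the clones was -3.63 and did not pass (edgeR adjusted p = 0.0594), where 7.46% of 21716 genes passed in the lower direction.

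Per clone, every tested member had a lower value than in PEO1. In ABTr1 all 5 tested members fell (4.29% of tested genes did), in ABTr2 4 of 5 (2.81%), in ABTr3 all 5 (3.89%) and in ABTr4 all 5 (5.25%), by the same edgeR test. KLK5, KLK6, KLK8 and KLK10 passed in each of the 4 clones, as did 2.10% of tested genes. The 4 comparisons share the PEO1 libraries, so they are not independent of each other. The exception was KLK7 in ABTr2, at -2.22 on the log2 scale with an SE of 0.64 (edgeR adjusted p = 0.077). It passed in 2 of 15 alternative fits, with the replicate number as a block (adjusted p = 0.023, in a fit where 10.8% of genes were lower in ABTr2) and with DESeq2 (adjusted p = 0.0128, 6.15% of genes lower), and in the other fits the edgeR adjusted p went up to 0.248. The value was -1.56 without ABTr2 replicate 1 and -3.21 without ABTr2 replicate 2.

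**Figure D2:**
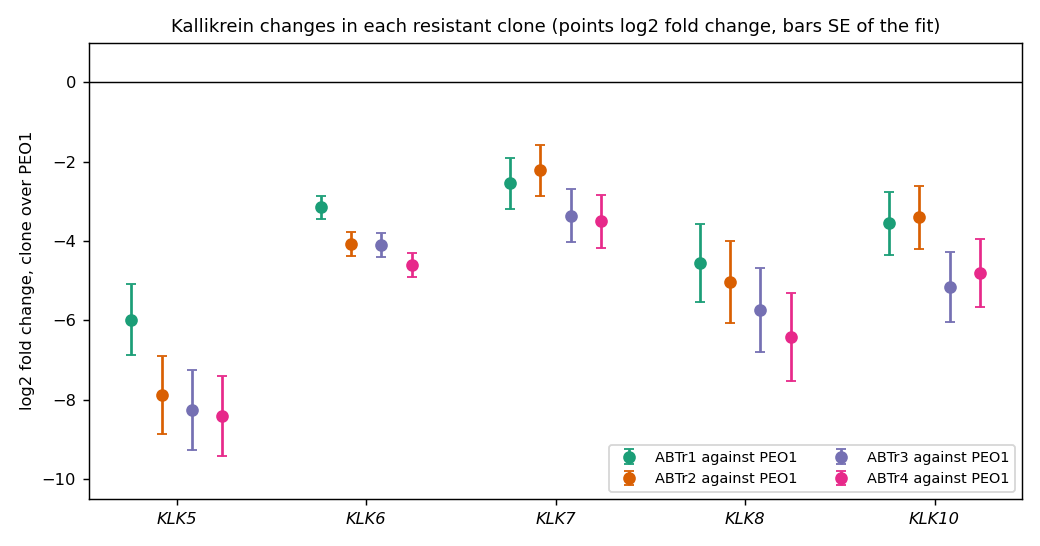
Log2 fold change of the 5 tested kallikreins in each clone over PEO1, with bars for an SE derived from the F statistic of the edgeR test. All 20 points lie below 0, from -2.22 for KLK7 in ABTr2 to -8.41 for KLK5 in ABTr4.

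KLK5 had log2 fold changes of -5.98 (SE 0.90) in ABTr1, -7.88 (SE 0.99) in ABTr2, -8.26 (SE 1.00) in ABTr3 and -8.41 (SE 1.01) in ABTr4, with edgeR adjusted p between 0.0035 and 0.0093. KLK6 had -3.14 (SE 0.29), -4.07 (SE 0.30), -4.10 (SE 0.30) and -4.61 (SE 0.31) in ABTr1, ABTr2, ABTr3 and ABTr4, with edgeR adjusted p between 6.72e-04 and 0.0030. These were the firmest calls per clone. KLK6 passed in all 15 alternative fits in every clone, including each of the 10 that leave out 1 library. KLK5 passed in all 15 in ABTr2 and ABTr4. In ABTr1 its call ended when either ABTr1 library was left out (edgeR adjusted p = 0.0729 without replicate 1 and 0.0781 without replicate 2), and in ABTr3 when either ABTr3 library was (0.0549 and 0.069). The size of the KLK5 change moved with single libraries. In ABTr4 it was -10.24 without ABTr4 replicate 2, -7.58 without ABTr4 replicate 1, -9.01 without PEO1 replicate 1 and -7.51 without PEO1 replicate 2. In ABTr2 it was -8.67 without ABTr2 replicate 2, -8.46 without PEO1 replicate 1 and -6.97 without PEO1 replicate 2. Without PEO1 replicate 2 it was -5.12 in ABTr1 and -7.38 in ABTr3, and without PEO1 replicate 1 it was -6.57 in ABTr1.

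KLK7, KLK8 and KLK10, the 3 tested members with the lowest levels in PEO1, rested more on single libraries, in fits that had no replicate block. With the block and all libraries, no call of a tested member against PEO1 ended, and KLK7 was called in ABTr2 as well. That fit called more genes lower, 10.8% in ABTr2 and 18.2% in the mean of the clones, against 2.81% and 8.79% without the block. KLK8 had -4.56 (SE 0.99), -5.03 (SE 1.03), -5.74 (SE 1.06) and -6.43 (SE 1.11) as its log2 fold changes in ABTr1, ABTr2, ABTr3 and ABTr4, with edgeR adjusted p between 0.011 and 0.028. Its call ended without PEO1 replicate 2 in ABTr1, ABTr2 and ABTr3 (edgeR adjusted p = 0.084, 0.0936 and 0.0684), without either own library in ABTr1, ABTr3 and ABTr4 (0.0668 to 0.163), and in ABTr2 without either ABTr1 library (0.0551 and 0.0542) or with only the ABTr2 and PEO1 libraries in the fit. In ABTr2 the KLK8 value was -7.81 without ABTr2 replicate 2 and -3.91 without ABTr2 replicate 1. It was -6.47 in ABTr3 without ABTr3 replicate 2 and -7.07 in ABTr4 without ABTr4 replicate 1.

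KLK10 had log2 fold changes of -3.56 (SE 0.80) in ABTr1, -3.40 (SE 0.80) in ABTr2, -5.16 (SE 0.87) in ABTr3 and -4.81 (SE 0.86) in ABTr4, with edgeR adjusted p between 0.013 and 0.043. It passed in 14 of 15 alternative fits in ABTr4, failing without ABTr4 replicate 1 (-4.12, edgeR adjusted p = 0.0572), and moved to -6.15 without ABTr4 replicate 2 and -4.21 without PEO1 replicate 2. In ABTr3 the call ended without PEO1 replicate 2 or without either ABTr3 library (0.0534 to 0.11), and in ABTr1 without PEO1 replicate 2, either ABTr1 library or either ABTr3 library (0.0518 to 0.174). ABTr2 was the least firm, with 8 of 15 fits past the threshold, a value of -2.79 without PEO1 replicate 2, and -4.58 and -2.75 without ABTr2 replicate 2 and replicate 1. Its call there also ended without either library of ABTr1 or ABTr3 (0.0713 to 0.0739) and with only the ABTr2 and PEO1 libraries in the fit (0.102). KLK7 passed in 6 of 15 alternative fits in ABTr1 (-2.55, SE 0.64, edgeR adjusted p = 0.043), where, of the fits that leave out 1 library, those without an ABTr2 library kept the call, and in 12 of 15 in ABTr3 (-3.36, SE 0.67, adjusted p = 0.024) and in ABTr4 (-3.51, SE 0.67, adjusted p = 0.016). In those the call ended without PEO1 replicate 2 (edgeR adjusted p = 0.086 in ABTr3 and 0.0648 in ABTr4) or without either of the clone's own libraries (0.0837 to 0.154).

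Whether the clones differed from each other was asked without the PEO1 level. In the test of any difference among the 4 clones, 0 of 5 members passed with edgeR (2 had an unadjusted p under 0.05), where 0.00606% of genes passed. DESeq2 called 1 member, KLK6 (adjusted p = 0.00598, with 1.59% of genes called), and the fit with a replicate block called 0, with 0.843% of genes called. Over the 6 pairs of clones, 0 of 30 tests of a member passed with edgeR (7 had an unadjusted p under 0.05), and no gene passed in any pair. With the replicate block 2 of the 30 passed, both in ABTr4 against ABTr1, where 1.26% of genes were lower. KLK5 had a log2 difference of -2.76 (SE 0.55, edgeR adjusted p = 0.043) and KLK6 of -1.47 (SE 0.24, edgeR adjusted p = 0.026) there. DESeq2 called 1 of the 30, KLK6 in the same pair (log2 difference -1.45, SE 0.32, adjusted p = 0.00216, with 0.967% of genes lower). By mean CPM the order was ABTr1, ABTr2, ABTr3 and ABTr4 for KLK5 (6.28, 1.75, 1.30 and 1.19) and for KLK6 (28.7, 15.1, 14.8 and 10.4), but no neighbours in either order differed by the test, and a p that misses the threshold does not show that they are alike.

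KLK6 was the most abundant kallikrein transcript in the clones and KLK5 in PEO1. Levels of different genes are set side by side here as CPM per kilobase of exon. Their sum over the 6 members was 7.81 to 24.9 CPM per kilobase in the clone libraries and 295 and 583 in PEO1. KLK6 made up 56.7% to 89.8% of that sum in the clone libraries, against 44.7% and 28.3% in PEO1. KLK5 made up 2.50% to 18.1% in the clone libraries, against 46.5% and 63.5% in PEO1. The ratio of KLK5 to KLK6 was thus 0.0278 to 0.279 in the clones and 1.04 and 2.24 in PEO1, with no overlap, and this ratio was not tested. KLK10 took 4.76% to 26.6% in the clone libraries and 6.29% and 6.41% in PEO1, where the ranges overlap.

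**Figure D3:**
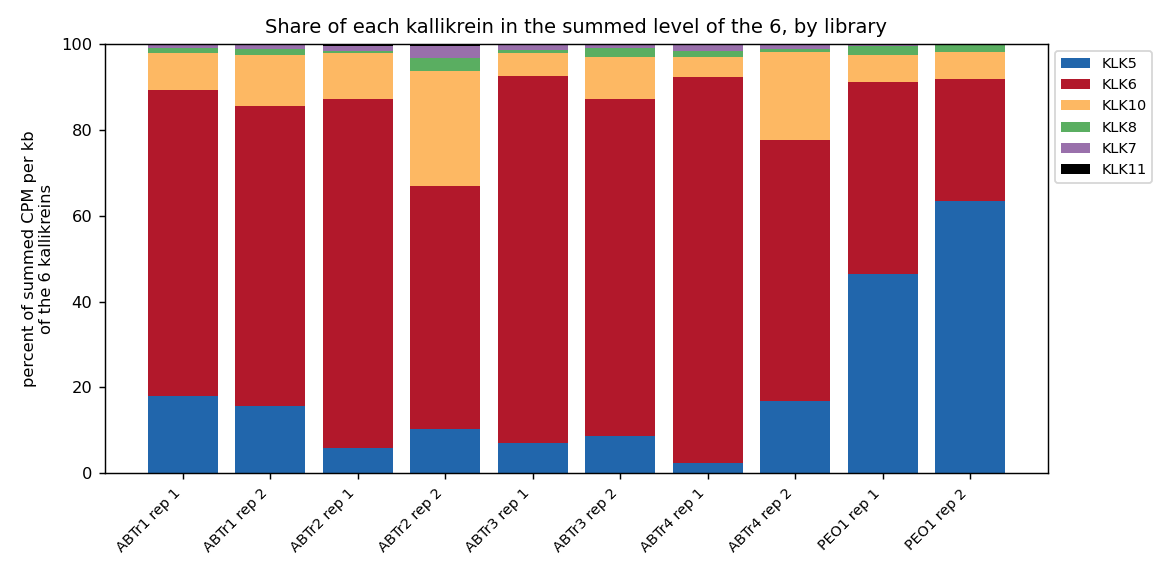
Share of each kallikrein in the summed CPM per kilobase of the 6, for each library, as stacked percentages. KLK6 is the largest block in all 8 clone libraries, with 56.7% or more, and KLK5 is the largest block in both PEO1 libraries.

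Per kilobase the members ranked KLK6 (10.1), KLK10 (1.71), KLK5 (1.68), KLK8 (0.204), KLK7 (0.182) and KLK11 (0.0234) in the clones, and KLK5 (254), KLK6 (148), KLK10 (28.0), KLK8 (7.63), KLK7 (1.27) and KLK11 (0.120) in PEO1. In the clones the levels of KLK10 and KLK5 lay within the spread between clones, as did those of KLK8 and KLK7.

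Across the 10 libraries the log2 CPM of the members ran together, with Pearson r from 0.888 (KLK6 and KLK10) to 0.963 (KLK7 and KLK8), values that span the gap between the clones and PEO1. Over the 8 clone libraries alone r ran from 0.352 (KLK6 and KLK10) to 0.799 (KLK5 and KLK10). These describe libraries that are grouped by clone and by replicate number and that differ in depth. Over all 10 libraries the genes with at least 1 CPM on average whose log2 CPM was most like that of KLK5 were GJA5 (r = 0.991), SLC44A2 (0.986) and UPK3B (0.985). For KLK6 they were LNX2 (0.988), CGREF1 (0.984) and FLJ23867 (0.984), and for KLK7 MYO3B (0.970), RNF43 (0.969) and PKP2 (0.968). For KLK8 they were MTUS1 (0.981), ITPKC (0.980) and PRRG2 (0.977), and for KLK10 CAPN1 (0.985), SH2D3A (0.985) and SYNE4 (0.983). No other member was among the 3 most alike of any member.

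The other kallikreins of the cluster were scarce in the clones and in PEO1. Of the 9 other kallikreins, KLK2 and KLK3 (the prostate marker PSA) had 0 reads in all libraries, and KLK4, KLK12, KLK13 and KLK15 had at most 4 reads in the clones and at most 3 in PEO1. KLK9, whose gene lies between KLK8 and KLK10, had 0 reads in the clones and 11 in PEO1. With 3 reads as the floor and the 11 PEO1 reads taken as exact, it was at least 17.1-fold lower in the clones pooled. Per clone the bound ran from 3.76-fold to 4.77-fold. These bounds leave out counting error in the 11 PEO1 reads and would be smaller with it. KLK9 was tested only with no filter (edgeR adjusted p = 0.0404), where 7.46% of 21716 genes passed in the lower direction. KLK14, which also activates other kallikreins in skin, averaged 0.302 ± 0.122 CPM in the clones (SD of 4 clone means) and 0.258 ± 0.0911 CPM in PEO1 (SD, n = 2) and did not pass (log2 fold change 0.12, SE 0.66, edgeR adjusted p = 0.93). Its sign turned when some libraries were left out. KLK1, tissue kallikrein, which releases kinins, had 79 reads in the clones (0.0591 to 0.870 CPM) and 0 in PEO1. By the same kind of bound, with the clone reads taken as exact, KLK1 was at least 5.65-fold higher in the clones pooled. Per clone KLK1 was higher by at least 2.56-fold to 12.5-fold. It reached the expression filter in 2 clone libraries and in no PEO1 library, that is, only through the group where it is high, so its test is not given as support.

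Within 250000 bases of the members on hg19 chromosome 19 the table lists 17 genes besides the kallikreins and their pseudogene KLKP1, of which 8 were tested. Of these, 1 was lower and 2 were higher in the mean of the clones, where 8.79% and 7.17% of all genes were. Both that were higher, SHANK1 and CD33, reached the expression filter in the clones only, so neither their count nor their tests are support for a direction. C19orf48 fell to 54.6 ± 13.2 CPM in the clones (SD of 4 clone means), against 138 ± 8.23 CPM in PEO1 (SD, n = 2), or -1.37 on the log2 scale with an SE of 0.22 (edgeR adjusted p = 0.0048). SHANK1, a scaffold protein of synapses, had 5.48 ± 1.77 CPM in the clones and 0.127 ± 0.0393 CPM in PEO1, or 5.37 on the log2 scale with an SE of 0.47 (edgeR adjusted p = 3.53e-04). CD33, a sialic acid receptor of myeloid cells, had 203 reads in the clones and 3 in PEO1 and passed (edgeR adjusted p = 0.023), but not without PEO1 replicate 2 (0.116). The log2 fold change of CD33 was 3.77, and 7.55 without PEO1 replicate 1. With the replicate block, where 18.2% of genes were lower and 16.3% higher, CTU1 (-0.95, edgeR adjusted p = 0.025) and CLEC11A (1.08, edgeR adjusted p = 0.032) passed as well, making 2 lower and 3 higher.

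**Figure D4:**
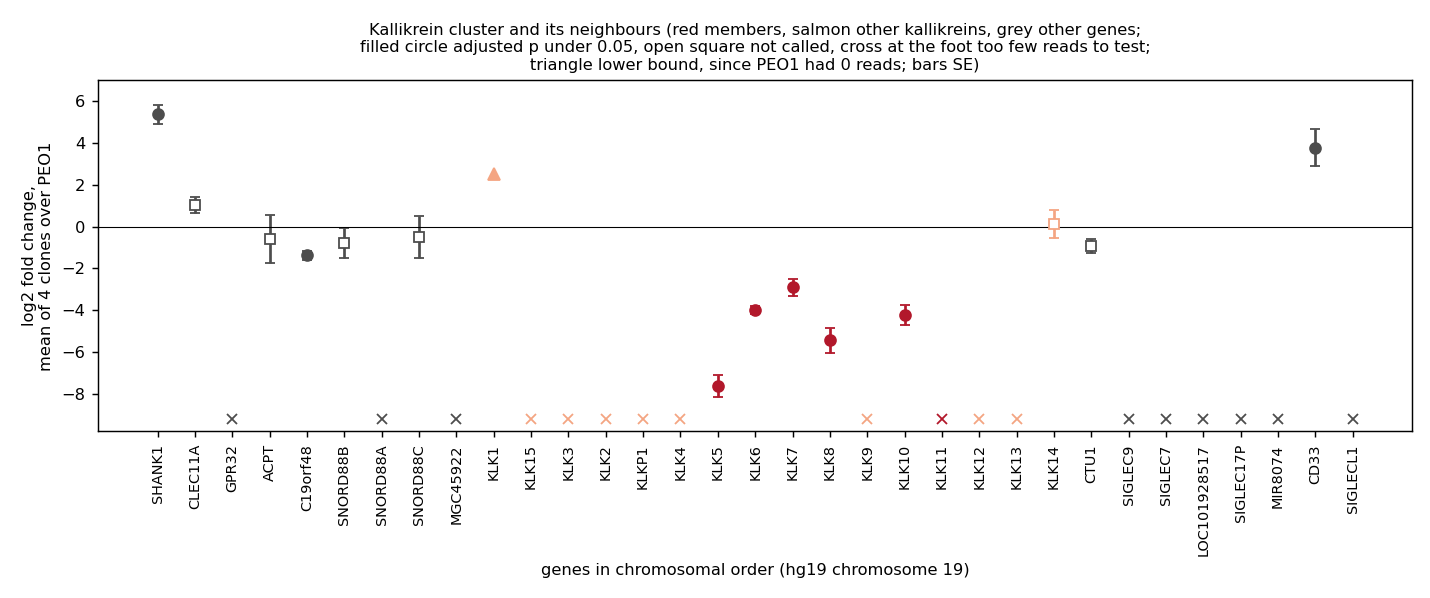
Log2 fold change of the mean of 4 clones over PEO1 for genes in chromosomal order, with bars for the SE, filled circles for genes past the threshold, open squares for tested genes that did not pass, crosses at the foot for genes with too few reads and a triangle for KLK1 at its lower bound. KLK5, KLK6, KLK7, KLK8 and KLK10 lie between -7.63 and -2.91, and SHANK1 at 5.37 is the highest point.

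Lists of other genes, chosen to go with the kallikreins, were described by counts beside 8.79% of tested genes lower and 7.17% higher. Where a gene reached the expression filter in 1 of the 2 groups alone, the one where it is high, this is said. Neither the test of such a gene nor its place in a count is given as support. Of 8 proteases that can activate kallikreins or act beside them, 6 were tested, 5 fell and PLAU (urokinase) did not pass (log2 fold change 0.91, edgeR adjusted p = 0.20), and 2 of the 5 that fell, TMPRSS4 and PLG, reached the filter in PEO1 only. TMPRSS4, a membrane serine protease, had 0.0587 ± 0.051 CPM in the clones (SD of 4 clone means) and 37.5 ± 17.9 CPM in PEO1 (SD, n = 2), a log2 fold change of -9.47 (edgeR adjusted p = 1.18e-04). PRSS8 (prostasin) had 4.52 CPM in the clones and 105 in PEO1 (log2 fold change -5.37, edgeR adjusted p = 1.91e-04), and ST14 (matriptase), which can cut kallikrein zymogens, had 51.5 CPM in the clones and 269 in PEO1 (-2.62, edgeR adjusted p = 3.44e-04). TMPRSS4 moved to between -10.8 and -10.22 without 1 of 3 clone libraries, and PRSS8 to -4.35 without PEO1 replicate 2 and -6.00 without PEO1 replicate 1. PLG, plasminogen, fell by 6.39 on the log2 scale (edgeR adjusted p = 0.0037), a call that ended without PEO1 replicate 2 (-3.25, adjusted p = 0.14).

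Of 16 inhibitors 10 were tested, 2 fell and 1 rose, with a median log2 fold change of -0.06. SPINT1, an inhibitor of matriptase and prostasin, had 33.0 CPM in the clones and 180 in PEO1 (log2 fold change -2.72, edgeR adjusted p = 0.0030, and -2.13 without PEO1 replicate 2). SERPINA1, alpha-1-antitrypsin, had 12 CPM in the clones and 1.47 in PEO1 (log2 fold change 2.94, edgeR adjusted p = 0.012), which was lost without PEO1 replicate 1 (2.31, adjusted p = 0.0611) and was 3.84 without PEO1 replicate 2. SPINT2 was lower by the test (-1.44, edgeR adjusted p = 0.044), but not when PEO1 replicate 2, either ABTr1 library, ABTr3 replicate 1 or ABTr4 replicate 1 was left out (0.0654 to 0.352). SERPINA5, also called protein C inhibitor, had a log2 fold change of 1.24 and did not pass (edgeR adjusted p = 0.26), and SPINK5 had 2 reads in the clones and 0 in PEO1.

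Of 20 known substrates and receptors 18 were tested and 4 fell. CDH1, the epithelial adhesion protein E-cadherin that kallikreins can cut, had 1.88 CPM in the clones and 252 in PEO1 (log2 fold change -8.19, edgeR adjusted p = 3.34e-04, and -7.41 without PEO1 replicate 2). NRG1, a growth factor that KLK8 can cut, fell by 2.60 on the log2 scale (edgeR adjusted p = 0.0013). F2RL1, the receptor PAR2 that KLK5 and KLK6 can activate, had 22.9 ± 7.77 CPM in the clones (SD of 4 clone means) and 59.4 ± 4.36 CPM in PEO1 (SD, n = 2), a log2 fold change of -1.45 (edgeR adjusted p = 0.0013). F2R, the receptor PAR1, had 37.5 CPM in the clones and 8.91 in PEO1 (log2 fold change 2.01, edgeR adjusted p = 0.014), and that call ended without PEO1 replicate 2 (0.123).

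Of 15 listed transcription factors and hormone receptors, all 15 were tested, 7 fell and 3 rose, with a median log2 fold change of -0.92. Of the 7 that fell, 1, GRHL2, reached the filter in PEO1 only. Whether any of the 15 acts on the kallikrein promoters in these cells was not tested. ESR1, the estrogen receptor, had 0.569 CPM in the clones and 109 in PEO1, and GRHL2, an epithelial transcription factor, had 0.0533 CPM in the clones and 121 in PEO1. ZEB1 had 45.7 CPM in the clones and 2.46 in PEO1, and ZEB2, which like ZEB1 binds E-boxes and represses epithelial genes, had 28.7 CPM in the clones and 1.04 in PEO1. ESR1, ZEB1 and ZEB2 passed with edgeR adjusted p between 1.16e-05 and 7.18e-04. The test of GRHL2 is not given as support, since GRHL2 reached the filter only through the group where it is high. The summed CPM of the 6 kallikreins was 14.7 to 45.1 in the clone libraries and 510 to 998 in PEO1. All 5 epithelial markers were lower in the clones as well, ESR1 and GRHL2 were lower with them, and ZEB1 and ZEB2 were higher. Of 3 endothelial markers, 1 fell, CDH5 (0.172 to 14.1 CPM in the clones and 14.6 to 61.6 CPM in PEO1, edgeR adjusted p = 0.015), and the summed CPM of the list was 0.968 to 15.3 in the clones and 15.2 to 62.3 in PEO1. Of 3 mesothelial markers, 1 fell, UPK3B (0.645 to 2.55 CPM in the clones and 11.1 to 20.6 CPM in PEO1, edgeR adjusted p = 3.75e-04), and the sum was 40.8 to 185 in the clones and 87.7 to 222 in PEO1. CD14 was lower with the replicate block (edgeR adjusted p = 0.0083) and did not pass without it (0.35), and COL1A1, the 1 fibroblast marker with enough reads to test, did not pass (log2 fold change -0.23, edgeR adjusted p = 0.85). What part any of them has in the kallikrein levels was not tested.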

How the data were processed

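Polyadenylated RNA of 10 libraries was sequenced after an Illumina TruSeq v2 preparation, per the labels' protocols. The authors deposited a table of raw counts per gene, and the submitters' processing notes list TopHat2 2.0.14, featureCounts 1.4.6, Subread and the build hg19. How strand and multiply matching reads were handled is not given in the sources used here, so reads shared by close paralogs are uncertain, although no kallikrein exon shares bases with another listed gene. The design text names 15 samples, and 10 libraries were analysed here. No library duplicated another.

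The counts were fitted with edgeR 4.0.16 in R 4.3.3 (limma 3.58.1 beneath it): TMM factors, the filter filterByExpr (about 10 reads, or 0.301 CPM, in at least 2 libraries; 16490 genes kept), a mean per group, and quasi-likelihood tests (5 residual degrees of freedom). P-values were adjusted by Benjamini-Hochberg over every gene kept, with a call at an adjusted p under 0.05. The SE of an edgeR value is the size of its log2 fold change divided by the square root of the F statistic of its test. DESeq2 1.42.0, its size factors in the edgeR fit, a fit of 2 groups alone, a replicate block, no filter, and leaving out each library were alternatives. Where 1 library of a group is left out, the lone one is assumed to vary like the other groups. Log2 CPM for correlations used a pseudocount of 0.125 CPM. A group with 0 reads was set at 3 reads for a bound, with the reads of the other group taken as exact. Exact 95% intervals cover counting error only. The fit without a block was also run on simulated counts, with an outcome not given here. Those counts held no replicate effect, so they cannot show how the pairing affects the tests.

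Same-numbered libraries deviated together (r from 0.303 to 0.761 over the 10 pairs of groups, above the threshold of 0.1), so the numbers were taken as pairing in the fit with the replicate block. The main fit and the fits that leave out a library had no block, so their spread includes the replicate difference. For genes named with a value, a blocked value is given where it changes a call. For the other genes of the lists only counts with the block are given. Where the pairing comes from is not in the labels. The kallikreins were always named. Other kallikreins were named where they had reads, up to 4 genes of each list by smallest adjusted p, and the 3 genes most like each member over the 10 libraries. Genes within 250000 bases of the members were listed too, and those of them named with values, as well as KLK2 and KLK3, were picked after their values were seen. The members and lists were chosen with earlier results of these data known. The count of substrates and receptors that were higher is not reported here. Figures were drawn with Python 3.11.15 and matplotlib 3.10.9.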

Additional observations from a re-analysis of the deposited data

How the results depend on the processing

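The fall of KLK5, KLK6, KLK7, KLK8 and KLK10 in the mean of the clones kept its direction and passed in all 14 alternatives run. Counts over all genes moved more. In the mean of the clones and then in ABTr1, ABTr2, ABTr3 and ABTr4 against PEO1, edgeR called 2631, 1611, 1008, 1216 and 1602 genes, DESeq2 3961, 3051, 2378, 2420 and 3001, and the fit with the replicate block 5699, 4956, 3640, 3722 and 4450. Fits of only the 2 compared groups called 699, 78, 659 and 447 genes in the 4 clones. Leaving out 1 library at a time gave 918 to 2527 genes in the mean, 221 to 1559 in ABTr1, 251 to 1028 in ABTr2, 81 to 1256 in ABTr3 and 453 to 1594 in ABTr4. The number of members called was 5, 4, 5 and 5 in the 4 clones, and with 1 library left out it was 1 to 5 in ABTr1, 2 to 4 in ABTr2, 1 to 5 in ABTr3 and 2 to 5 in ABTr4. It was 2 in ABTr2 when only the libraries of ABTr2 and PEO1 were fitted. Differences among the 4 clones were called for 1 gene, against 265 with DESeq2, 2 with no filter, 139 with the replicate block and 0 to 1 with a library left out. Among the members DESeq2 called 1 there, and over the pairs of clones DESeq2 called 1 test and the replicate block 2. The replicate block changed 1 other member call, KLK7 in ABTr2, where the edgeR adjusted p was 0.023. It brought the genes called lower to 3 inhibitors, 6 substrates and receptors and 8 transcription factors, against 2, 4 and 7 without it. The share of all tested genes called lower in the mean of the clones rose as well, to 18.2% with the block from 8.79% without it. Signs turned for 3 genes that did not pass. With 1 library left out, the log2 values ran from -2.06 to 0.54 for ACPT (value with all libraries -0.59) and from -1.75 to 5.51 for SNORD88C (-0.50), both turned by leaving out PEO1 replicate 1, and from -0.18 to 0.52 for KLK14 (0.12), which was -0.18, -0.01, -0.17 and -0.09 without PEO1 replicate 2, ABTr2 replicate 1, ABTr3 replicate 1 and ABTr4 replicate 2. The cause of these shifts was not tested. Depth limits KLK7, KLK8 and KLK11 most, which had 108, 60 and 10 reads in the 8 clone libraries, against 177, 557 and 13 in PEO1.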

Other observations

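Replicate 1 and replicate 2 differed in the same direction for some kallikreins in most groups. The log2 CPM of KLK10 in replicate 1 minus replicate 2 was -0.34 in ABTr1, -1.78 in ABTr2, -0.79 in ABTr3, -1.94 in ABTr4 and -1.01 in PEO1, so replicate 2 was higher in 5 of 5 groups. For KLK5 the same difference was 0.33, -1.25, -0.18 and -2.29 in ABTr1, ABTr2, ABTr3 and ABTr4 and -1.44 in PEO1, so replicate 2 was higher in 4 of 5. For KLK6 it was 0.16, -0.01, 0.18 and 0.64 in ABTr1, ABTr2, ABTr3 and ABTr4 and -0.33 in PEO1. The biological coefficient of variation of the fit over all genes was 36.8%, and 23.4% with the replicate block.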
